A study of Homo sapiens with 192 samples.

Results

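The hypoxia-inducible factors (HIF) and the enzymes that sense oxygen upstream of them were followed as 10 genes, chosen by name, among 58243 genes with counts. They are the alpha subunits HIF1A, EPAS1 and HIF3A, the beta subunits ARNT and ARNT2, the ubiquitin ligase subunit VHL, the prolyl hydroxylases EGLN1, EGLN2 and EGLN3, and the asparaginyl hydroxylase HIF1AN. In GENCODE 29 (GRCh38) the genes the results turn on lie at chr14:61695513-61748259 (HIF1A, plus strand), chr2:46293667-46386703 (EPAS1, plus strand), chr1:231363751-231425044 (EGLN1, minus strand) and chr14:33924231-34462774 (EGLN3, minus strand), and all 10 are protein coding. Genes were identified by Ensembl identifier, and the counts of the technical replicates of each library were added. Of the 10 genes, 9 passed the filter on low counts and were tested, and HIF3A did not.

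Transcripts were sequenced in 4 human colorectal cancer (CRC) lines. The microsatellite stable lines were HT29 and LS513, and the microsatellite instable ones were HCT116 and LS174T. Both 2D and 3D growth had 3 libraries for each line, hence 8 groups and 24 libraries. No group received a drug or a genetic change. All lines were cultured in DMEM except HCT116, which was cultured in McCoy medium, so the line and its medium cannot be told apart. The labels do not say whether the 3 libraries of a group came from separate cultures, so the p-values measure the spread between these libraries, which may be technical. Each line is a single model, so differences between lines hold for these lines only.

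A HIF is a dimer of an alpha and a beta subunit that binds DNA and switches on genes of glycolysis, acid balance, vessel growth and iron and oxygen supply. With oxygen present, the EGLN enzymes hydroxylate prolines of the alpha subunit, VHL binds the hydroxylated protein, and the protein is degraded. HIF1AN hydroxylates an asparagine and blocks the binding of coactivators. The alpha subunits are regulated mostly as proteins, and the data given here are transcript levels. EGLN3 and EGLN1 are themselves known HIF target genes, a feedback loop that raises the enzymes when HIF is active. In the colon, HIF1A and EPAS1 are both studied for their parts in epithelial barrier function and tumour growth.

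Library totals were between 18723942 and 34277421 counts, and 3 counts, taken as the floor of detection, corresponded to 0.0875 to 0.160 CPM (the count scaled to a common library total). Levels are given below in CPM on the TMM scale, which corrects library totals for composition. The floor covers counting error only, whereas SEs and SDs include the spread between libraries. All 12 epithelial markers were above 3 counts in every library of HT29, LS513 and LS174T, and 9 or 10 of them were in HCT116. In HCT116 grown in 2D, CDX1, CDH17, LGALS4 and VIL1 were at means of 0.00959, 0.0107, 0.120 and 0.223 CPM. Epithelial markers called higher in 3D (edgeR adjusted p under 0.05) numbered 7 of 12 (HT29), 7 (LS513), 4 (HCT116) and 6 (LS174T). Over all tested genes, 21.1%, 13.7%, 16.8% and 13.1% were called higher in the same order of lines. The 1 marker called lower was KRT18 in HT29 (log2 fold change -0.41, SE 0.14, edgeR adjusted p = 0.0256). The part of these markers in the results below was not tested. PTPRC, which defines leukocytes, was at 0 to 0.0229 CPM in the group means. Summed fibroblast markers were between 0.341 and 22.1 CPM and summed endothelial markers between 0.0299 and 2.38 CPM per library. Of the leukocyte markers, LYZ was at a mean of 1373 CPM in HT29 grown in 2D and 2550 CPM in 3D, and at no more than 4.09 CPM in the group means of the other lines. CD14 was at a mean of 6.11 CPM in 2D and 12.6 CPM in 3D in HT29, and both were called higher there (edgeR adjusted p = 8.32e-04 for LYZ and 0.00721 for CD14). Their part in the results of HT29 was not tested. In bulk samples, fewer cells expressing a gene and less RNA per cell cannot be told apart. One library stood apart from its group: LS174T 3D replicate 2 differed from its group mates by a root mean square of 0.395 on the log2 scale, against 0.122 to 0.294 for the other 23 libraries. Mitochondrial transcripts made up 6.40% of HCT116 3D replicate 1, the highest share of the 24 libraries. Values without these libraries are given beside the called growth effects of members in LS174T and HCT116. Shares within a family include them.

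The sequence just before the transcription start is shown for the hydroxylases because EGLN1 and EGLN3 were the members called higher in 3D in more than 1 line. HIF binds the core letters ACGTG or GCGTG. These 5 letters were searched on both strands in the 250 bases upstream of each RefSeq start (GRCh38.p14), where a match on one strand may overlap a match on the other. Capitals mark the match. The EGLN1 stretch is chr1:231422288-231422317 on the minus strand, the 30 bases before the start, and it lies in a first exon of a longer GENCODE 29 transcript. The EGLN2 stretch is chr19:40799130-40799159 on the plus strand. The EGLN3 stretch is chr14:33951082-33951324 on the minus strand, without the 7 bases nearest the start that GENCODE 29 places in an exon.
EGLN1: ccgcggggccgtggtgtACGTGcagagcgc
EGLN2: gcggggcgcggtCACGTGcccaccgggcga
EGLN3: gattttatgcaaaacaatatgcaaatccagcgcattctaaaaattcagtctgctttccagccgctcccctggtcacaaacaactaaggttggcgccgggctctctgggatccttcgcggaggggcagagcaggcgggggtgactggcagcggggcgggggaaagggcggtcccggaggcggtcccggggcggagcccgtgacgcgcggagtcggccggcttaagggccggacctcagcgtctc
EGLN1 held 1 match, 13 bases before the start. EGLN2 held the palindrome CACGTG, read as 1 match on each strand, and EGLN3 held none in its 250 bases. Of the 8 members with a window, 5 had a match, and 5 of their 12 windows (41.7%) did, against 43.2% of all 35116 windows of this length. The match count is a description of letters, and an absent match says only that these letters are not in this window. In a list of HIF target genes that are not members, 44 of 52 windows (84.6%) held a match.

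**Figure D1:**
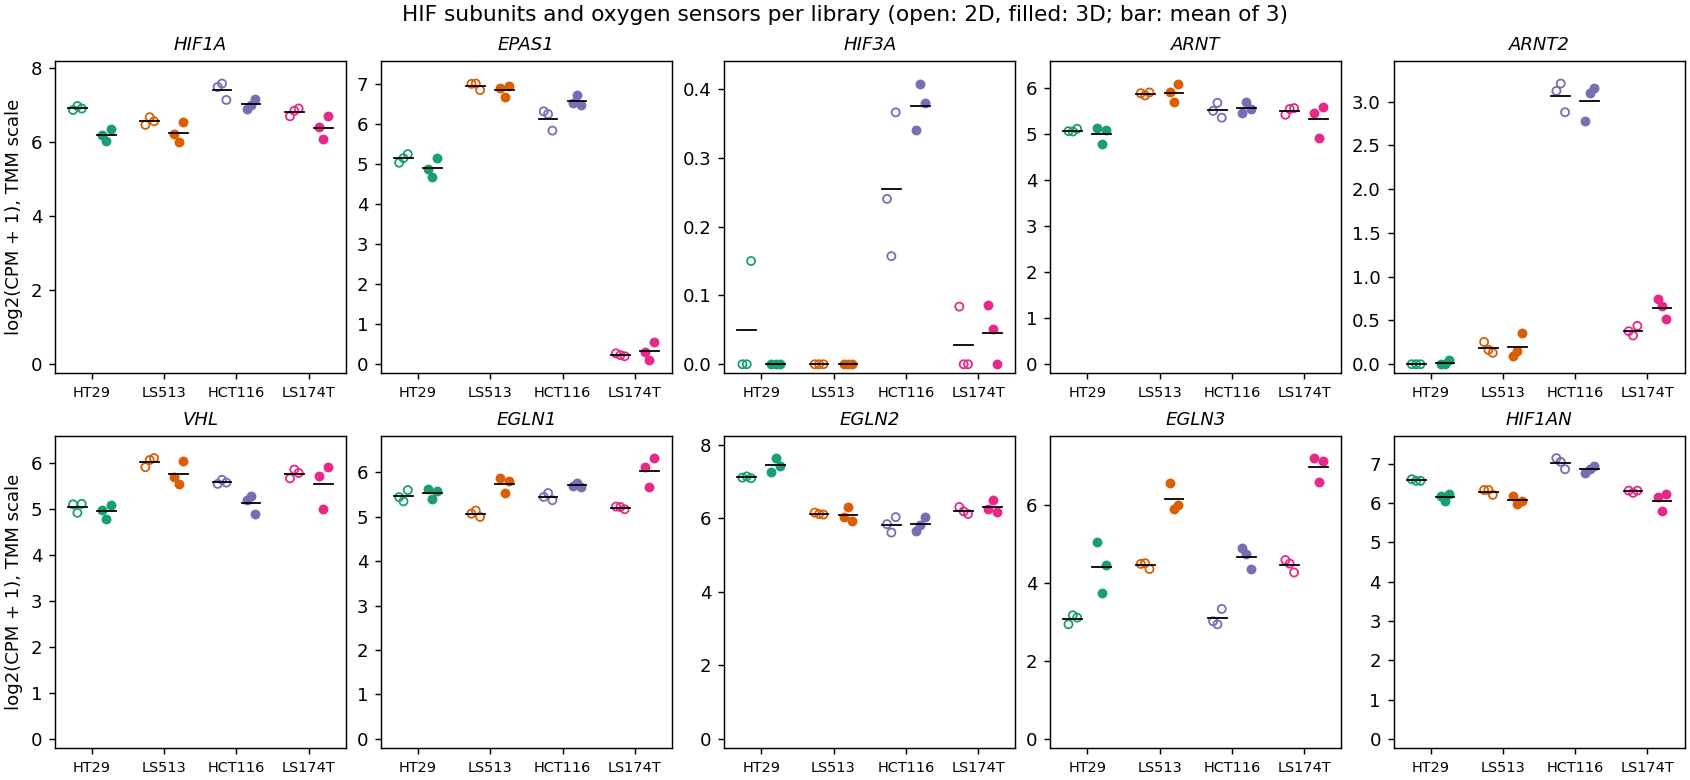
Level of the 10 genes in each of the 24 libraries, as log2(CPM + 1) on the TMM scale, with a scale of its own for each gene; open points are 2D libraries, filled points 3D libraries, and bars the mean of 3 libraries. The 3D points of EGLN3 lie above the 2D points in all 4 lines, EPAS1 is near 0 in LS174T, and ARNT2 and HIF3A are highest in HCT116.

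Among the members, EGLN3 rose in 3D in all 4 lines, EGLN1 rose in LS513 and LS174T, and HIF1A fell in HT29. HIF1A was also called lower in HCT116 and LS174T, but those calls were lost when single libraries were left out. At an adjusted p of 0.05 in edgeR's quasi-likelihood test (Benjamini-Hochberg over 19387 genes), 4 of the 9 tested members were called in HT29 (2 higher, 2 lower), both of 2 calls in LS513 were higher, HCT116 had 4 calls (2 higher, 2 lower) and LS174T had 3 (2 higher, 1 lower). Over all tested genes the shares called were 40.7%, 23.6%, 29.1% and 22.2% in the same order of lines. By direction, 21.1%, 13.7%, 16.8% and 13.1% of all genes were called higher, and 19.6%, 9.9%, 12.3% and 9.15% lower. The counts of members called were thus near the background in most lines, and the results below concern single genes. EGLN3 was 1 of 608 genes (3.14% of those tested) called higher in every line, and no member was among the 2.46% called lower in every line. With the study's cutoffs, a log2 fold change over 1.5 or under -0.5 besides the adjusted p, EGLN3 was the 1 member called higher in each line (4.9%, 2.67%, 3.18% and 2.15% of all genes) and HIF1A in HT29 the 1 member called lower (12.5%, 5.36%, 6.1% and 5.11% of all genes). With 3 libraries against 3, an exact permutation test of a single gene cannot go below p = 0.1, so the calls rest on the model fitted across all genes.

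EGLN3, a prolyl hydroxylase with a preference for the C-terminal degradation proline of HIF alpha, showed the largest increase of the members tested in LS513, HCT116 and LS174T, and in HT29 it was the largest among members with counts above the floor. In HT29 its 2D libraries were at 6.65, 7.98 and 7.61 CPM and its 3D libraries at 31.8, 12.3 and 21.0 CPM. All 3D libraries of HT29 were above all its 2D libraries, with a wide spread among the 3D ones. The log2 fold change of 3D over 2D was 1.55 (SE 0.25, edgeR adjusted p = 5.14e-05), which is 2.93-fold. In LS513 the 2D libraries were at 21.4, 21.7 and 19.4 CPM and the 3D libraries at 92.6, 58.2 and 63.1 CPM. The difference was 1.78 on the log2 scale (SE 0.24, edgeR adjusted p = 9.44e-06), or 3.42-fold. The HCT116 libraries were at 7.07, 6.64 and 9.05 CPM in 2D and at 28.6, 25.6 and 19.4 CPM in 3D, without overlap. This gave a log2 fold change of 1.69 (SE 0.25, edgeR adjusted p = 2.79e-05) and a fold of 3.24. LS174T had the highest level of EGLN3 in 3D, with 145, 94.98 and 139 CPM against 23.0, 21.5 and 18.2 CPM in 2D. Its log2 fold change was 2.597 (SE 0.24, edgeR adjusted p = 1.08e-07), or 6.05-fold. Without LS174T 3D replicate 2 it was 2.78, and without HCT116 3D replicate 1 that of HCT116 was 1.55. Over all tested genes, the 2D and 3D libraries did not overlap for 52.9% (HT29), 42.9% (LS513), 40.4% (HCT116) and 38.5% (LS174T).

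The size of the EGLN3 increase ranged from 2.93-fold to 6.05-fold, and the interaction of line and growth had an adjusted p of 0.0957 (edgeR), against 17.1% of all genes called. The pairwise difference farthest from 0 was HT29 minus LS174T, -1.04 on the log2 scale (SE 0.34, edgeR adjusted p = 0.0707). A difference in size between lines was therefore not called, and leaving out HT29 3D replicate 1 brought the interaction to an adjusted p of 0.0140. When genes with at least 1 count were all tested, the interaction of EGLN3 had an adjusted p of 2.54e-06. In 2D the lines fell into a higher and a lower pair: LS174T and LS513 differed by less than 0.01 on the log2 scale (edgeR adjusted p = 1), and HCT116 and HT29 by 0.03 (adjusted p = 0.937). LS513 was above HCT116 by 1.46 (edgeR adjusted p = 1.66e-05). In 3D, LS174T was above LS513 by 0.83 (edgeR adjusted p = 0.00339) and LS513 above HCT116 by 1.54 (adjusted p = 4.06e-06), and HCT116 and HT29 differed by 0.17 (adjusted p = 0.535).

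EGLN1, the main prolyl hydroxylase for HIF1A in most cells, rose in LS513 and LS174T. In LS513 the 2D libraries were at 32.6, 34.3 and 30.9 CPM and the 3D libraries at 57.6, 45.3 and 54.95 CPM. The groups did not overlap, and the log2 fold change was 0.69 (SE 0.13, edgeR adjusted p = 2.89e-04), a fold of 1.61. In LS174T the libraries were at 36.5, 36.3 and 35.0 CPM in 2D and 68.1, 49.5 and 78.9 CPM in 3D. The log2 fold change was 0.87 (SE 0.12, edgeR adjusted p = 3.71e-05), a fold of 1.82, and 1.04 without LS174T 3D replicate 2, the lowest of the 3D libraries. HCT116 libraries were at 42.6, 45.3 and 40.4 CPM in 2D and 50.8, 53.1 and 49.6 CPM in 3D. They did not overlap, and the log2 fold change of 0.26 (SE 0.12) had an adjusted p of 0.122. HT29 libraries overlapped, with 42.5, 39.7 and 47.5 CPM in 2D and 48.1, 41.3 and 46.9 CPM in 3D, and the log2 fold change was 0.07 (SE 0.12, edgeR adjusted p = 0.688).

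EGLN1 was the one member of 9 with a growth effect that differed between lines (edgeR interaction adjusted p = 0.00581, where 17.1% of all genes were called). The effect in HT29 was lower than in LS513 by -0.62 (SE 0.18, edgeR adjusted p = 0.0224) and lower than in LS174T by -0.79 (SE 0.18, adjusted p = 0.00673) on the log2 scale. The effect in HCT116 was lower than in LS174T by -0.61 (SE 0.18, edgeR adjusted p = 0.0457). Over all genes these 3 differences were called for 12.1%, 6.65% and 4.75%. The other 3 pairs of lines were not called for EGLN1, where 7.76% (HT29 and HCT116), 4.34% (LS513 and HCT116) and 3.62% (LS513 and LS174T) of all genes were. In 2D the order of levels was HT29, HCT116, LS174T, LS513, and no neighbours in it were called different. In 3D LS174T was above LS513 by 0.32 on the log2 scale (edgeR adjusted p = 0.0303), and LS513, HCT116 and HT29 followed without a called step between neighbours.

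EGLN2, a prolyl hydroxylase not known for induction by low oxygen, rose in HT29 alone among the 4 tests. Its HT29 libraries were at 137, 140 and 135 CPM in 2D and 153, 198 and 171 CPM in 3D. They did not overlap, and the log2 fold change was 0.34 (SE 0.12, edgeR adjusted p = 0.0290), or 1.27-fold. The call was lost without HT29 2D replicate 3 (adjusted p = 0.0524) and without HT29 3D replicate 3, and adjusted p-values over the libraries left out were 0.0108 to 0.0944. In LS513, HCT116 and LS174T the log2 fold changes were -0.02, 0.01 and 0.11, each with an SE of 0.12. The difference of the HT29 effect from that of the other lines was not called (edgeR interaction adjusted p = 0.375). EGLN2 shares 2012 exonic bases, 30.6% of its exonic length, with the read-through gene RAB4B-EGLN2 on the same strand. The counts of EGLN2 were 0.884 to 1.03 times those of RAB4B-EGLN2 in the 24 libraries, and reads in the shared bases could belong to either. RAB4B-EGLN2 was at 141 CPM in 2D and 192 CPM in 3D in HT29 (log2 fold change 0.44, SE 0.12, edgeR adjusted p = 0.00641). HT29 also had the highest EGLN2 level, above LS174T by 0.92 on the log2 scale in 2D (edgeR adjusted p = 6.90e-07) and by 1.15 in 3D (adjusted p = 2.06e-08).

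**Figure D2:**
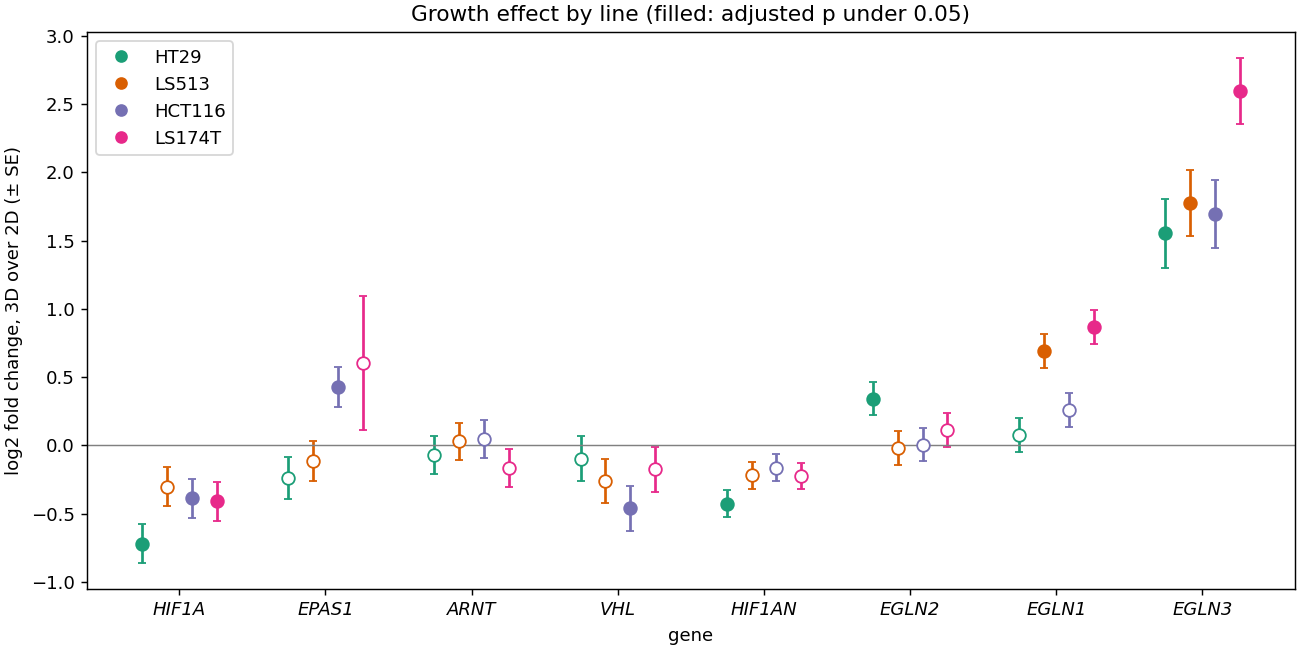
Log2 fold change of 3D over 2D with its standard error for 8 tested members in each line, filled where the adjusted p was under 0.05; ARNT2 and HIF3A are left out because their counts were near 0 in several lines. EGLN3 is filled in all 4 lines at 1.55 to 2.597, EGLN1 in LS513 and LS174T, and HIF1A is below 0 in all 4 lines and filled in 3.

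HIF1A encodes the alpha subunit that is best known for the glycolytic response to low oxygen. In HT29 it was at 115, 124 and 118 CPM in 2D and 71.4, 64.5 and 80.8 CPM in 3D. The 3D libraries were all lower, with a log2 fold change of -0.72 (SE 0.14, edgeR adjusted p = 4.14e-04), so that the 2D level was 1.65-fold the 3D level. HCT116 had the highest HIF1A levels, 177, 189 and 139 CPM in 2D and 118, 126 and 143 CPM in 3D, and its groups overlapped. Its log2 fold change was -0.39 (SE 0.14, edgeR adjusted p = 0.0447). In LS174T the libraries were at 102, 113 and 118 CPM in 2D and 82.7, 66.0 and 102 CPM in 3D, again with overlap, and the log2 fold change was -0.41 (SE 0.14, edgeR adjusted p = 0.0427). LS513 libraries were at 86.8, 100 and 92.9 CPM in 2D and 72.4, 63.3 and 91.3 CPM in 3D, with a log2 fold change of -0.30 (SE 0.14, edgeR adjusted p = 0.136).

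The calls of HIF1A in HCT116 and LS174T were close to the threshold. In HCT116 the call was lost without 2D replicate 1, 2D replicate 2, 3D replicate 1 or 3D replicate 2, with adjusted p-values over the 6 libraries left out of 0.00870 to 0.197. Without HCT116 3D replicate 1, the library rich in mitochondrial transcripts, the log2 fold change was -0.34 (edgeR adjusted p = 0.137). In LS174T the call was lost with any of the 3 2D libraries, 3D replicate 1 or 3D replicate 2 left out, and without the last, which stands apart, the log2 fold change was -0.26 (edgeR adjusted p = 0.265). In HT29 it was kept with each library left out (adjusted p 0.00110 to 0.00711). The 4 effects did not differ detectably from each other (edgeR interaction adjusted p = 0.420). HCT116 was above HT29, the next line, by 0.50 on the log2 scale in 2D (edgeR adjusted p = 0.00353) and above LS174T, the next in 3D, by 0.62 (adjusted p = 5.56e-04), and the other neighbours in either order were not called different. HIF1A shares 148 exonic bases, 2.87% of its exonic length, with AL137129.1 on the same strand, which had 135 to 825 counts per library against 1782 to 6577 for HIF1A. Reads in the shared bases could belong to either gene. AL137129.1 fell in HT29 (log2 fold change -1.16, SE 0.20, edgeR adjusted p = 7.36e-05) and in HCT116 (-0.61, SE 0.18, adjusted p = 0.0154), and its values in LS513 and LS174T were -0.36 (adjusted p = 0.199) and -0.37 (adjusted p = 0.159).

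EPAS1, which encodes HIF-2 alpha and is often linked to iron and erythropoietin regulation, differed far more between lines than between growth conditions. LS513 had the highest levels, with 126, 127 and 113 CPM in 2D and 118, 99.8 and 122 CPM in 3D. HCT116 followed with 78.2, 74.6 and 55.8 CPM in 2D and 89.9, 104 and 86.7 CPM in 3D. HT29 was at 31.6, 34.3 and 36.8 CPM in 2D and 28.2, 24.3 and 34.5 CPM in 3D. LS174T had 7, 6 and 5 counts in 2D and 8, 2 and 15 counts in 3D, a mean of 0.176 and 0.260 CPM, where the floor was 3 counts. In 2D every step of this order was called: LS513 was above HCT116 by 0.82 on the log2 scale (edgeR adjusted p = 3.96e-05), HCT116 above HT29 by 1.02 (adjusted p = 2.56e-06) and HT29 above LS174T by 7.57 (adjusted p = 2.15e-17). In 3D LS513 and HCT116 were not called different (log2 difference 0.28, edgeR adjusted p = 0.106), and HT29 was above LS174T by 6.73 (adjusted p = 8.34e-17).

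EPAS1 rose in 3D in HCT116 by 0.43 on the log2 scale (SE 0.15, edgeR adjusted p = 0.0345, 1.34-fold), where the 2D and 3D libraries did not overlap. This call was lost without 2D replicate 2, 2D replicate 3, 3D replicate 1 or 3D replicate 2, with adjusted p-values over the libraries left out of 0.0349 to 0.209, and was 0.0709 without 3D replicate 1. In HT29, LS513 and LS174T the log2 fold changes were -0.24 (SE 0.15), -0.11 (SE 0.15) and 0.60 (SE 0.49), with edgeR adjusted p-values of 0.230, 0.648 and 0.402. The difference between lines in growth effect had an interaction adjusted p of 0.0837 in edgeR, 0.0280 in DESeq2 and 0.0263 in edgeR without LS174T 3D replicate 2.

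HIF3A, whose product can act as a negative regulator of the other alpha subunits, was detectable in HCT116 alone by the rule of more than 3 counts in all 3 libraries. HCT116 had 6, 4 and 9 counts in 2D and 8, 10 and 9 counts in 3D, and no library of the other lines had more than 2 counts. At this depth, HIF3A in those lines was not detectable above the floor of 0.0875 to 0.160 CPM.

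The balance of the alpha subunits was compared per exonic length, as each gene's share of the summed TPM (counts per exonic length, scaled to a fixed total in each library) of HIF1A, EPAS1 and HIF3A within a library. EPAS1 made up 16.9 ± 1.01% (SD, n = 3) of this sum in HT29 grown in 2D and 22.0 ± 1.10% in 3D. Its share was 48.1 ± 2.34% and 51.5 ± 2.69% in LS513, and 22.5 ± 1.06% and 33.9 ± 3.48% in HCT116. In LS174T it was 0.113 ± 0.0287% and 0.201 ± 0.120%, so that HIF1A made up nearly the whole sum. The 2D and 3D ranges did not overlap in HT29 (16.2% to 18.0% against 21.0% to 23.2%) or in HCT116 (21.8% to 23.7% against 30.0% to 36.7%). LS513 was the line in which both subunits had about equal shares, and LS174T the line in which EPAS1 was close to the floor. HIF3A made up at most 0.101% of the sum in any library.

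**Figure D3:**
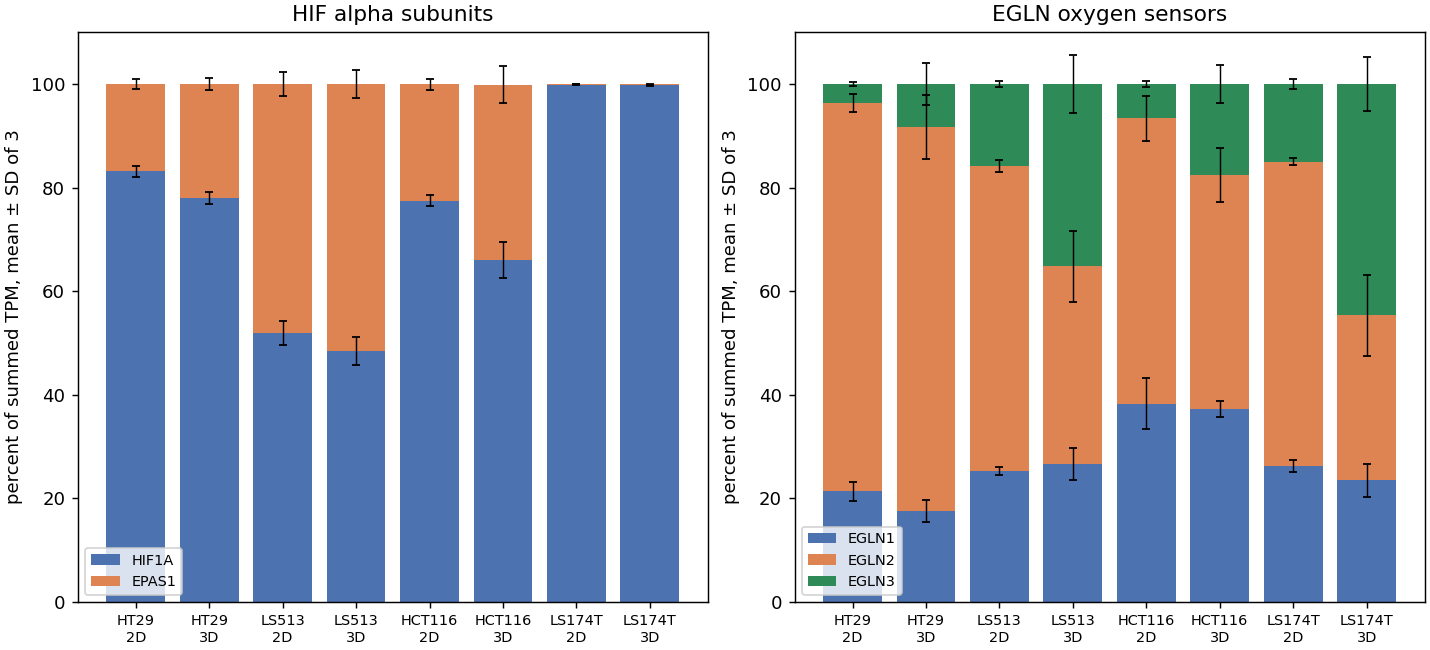
Share of each alpha subunit and of each EGLN gene in the summed TPM of its family, as the mean of 3 libraries per group; error bars are the SD of each gene's own share, drawn at the top of its segment, and HIF3A is too small to be seen. EPAS1 takes 0.113% in LS174T and 48.1% in LS513 in 2D, and EGLN3 goes from 15.0% to 44.6% in LS174T.

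The same measure showed the make-up of the EGLN family. EGLN3 made up 3.62 ± 0.310% (SD, n = 3) of the summed EGLN TPM in HT29 grown in 2D and 8.38 ± 4.09% in 3D. Its share went from 15.9 ± 0.497% to 35.2 ± 5.67% in LS513, from 6.63 ± 0.667% to 17.6 ± 3.75% in HCT116 and from 15.0 ± 0.903% to 44.6 ± 5.27% in LS174T. The ranges of the 2D and 3D libraries did not overlap in any line. By group means, EGLN2 held the largest share of the 3 genes in every group except LS174T grown in 3D, where EGLN2 was at 31.9 ± 7.82%. Single libraries could differ. In LS513 3D replicate 1, EGLN3 was at 41.4% and EGLN2 at 32.5%. In LS174T 3D replicate 2, EGLN2 was at 40.9% and EGLN3 at 38.7%. Reads in the bases that EGLN2 shares with RAB4B-EGLN2 could belong to either gene, which makes the shares of all 3 genes uncertain. The shares depend on the length used, since EGLN3 has 7359 exonic bases over all its transcripts. With the length of the longest transcript the share of EGLN3 was 5.91% and 13.1% in HT29, 24.7% and 49.7% in LS513, 11.5% and 28.4% in HCT116 and 23.5% and 59.6% in LS174T, and it was then also above EGLN2 in LS513 grown in 3D. TPM values set all genes against the same total, and the median log2 difference of 3D from 2D in TPM was -0.04 (HT29), -0.15 (LS513), -0.20 (HCT116) and -0.17 (LS174T). Levels in TPM were therefore not compared between 2D and 3D. TPM was used for shares within a library and, in the last section, for mean levels over all libraries.

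ARNT, the beta subunit that pairs with every HIF alpha subunit and with the dioxin receptor AHR, was not called in any line. Its log2 fold changes were -0.07, 0.03, 0.05 and -0.17 in HT29, LS513, HCT116 and LS174T, each with an SE of 0.14. The level was highest in LS513, at 58.0, 56.1 and 58.6 CPM in 2D and 58.7, 50.3 and 67.2 CPM in 3D, and lowest in HT29, at 32.3, 32.1 and 33.5 CPM in 2D and 33.8, 26.5 and 32.9 CPM in 3D. HCT116 and LS174T lay between them and were not called different from each other (edgeR adjusted p = 0.965 in 2D and 0.159 in 3D).

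ARNT2, a beta subunit best known from neurons and kidney, was found above 1 CPM in HCT116 alone. There it was at 7.70, 8.22 and 6.35 CPM in 2D and 5.88, 7.55 and 7.89 CPM in 3D, with a log2 fold change of -0.06 (SE 0.21, edgeR adjusted p = 0.879). ARNT2 made up 12.3 ± 0.479% (SD, n = 3) of the summed TPM of both beta subunits in HCT116 grown in 2D and 11.5 ± 1.24% in 3D, and at most 1.65% in any library of another line. LS174T had 10, 9 and 12 counts in 2D and 22, 16 and 14 counts in 3D. These did not overlap, and the log2 fold change of 0.88 (SE 0.34) had an edgeR adjusted p of 0.0688. Without LS174T 3D replicate 2 it was 0.87 (edgeR adjusted p = 0.164). LS513 had 2 to 8 counts, and HT29 had 0 in 5 libraries and 1 in the sixth, so no fold is given for HT29. HCT116 was above LS174T by 4.597 on the log2 scale in 2D (edgeR adjusted p = 3.48e-12).

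VHL, the substrate receptor that binds hydroxylated HIF alpha, fell in HCT116. Its libraries there were at 45.5, 48.5 and 46.5 CPM in 2D and 35.6, 37.9 and 28.5 CPM in 3D, without overlap. The log2 fold change was -0.46 (SE 0.17, edgeR adjusted p = 0.0403). The call was lost without 2D replicate 1, 2D replicate 2, 3D replicate 1 or 3D replicate 3 (adjusted p 0.0380 to 0.138 over the libraries left out, and 0.0590 without 3D replicate 1). In HT29 the log2 fold change was -0.10, in LS513 -0.26 and in LS174T -0.18, with edgeR adjusted p-values of 0.697, 0.278 and 0.471. Without LS174T 3D replicate 2 the value of LS174T was 0.06 (edgeR adjusted p = 0.840). The 4 effects were not called different (edgeR interaction adjusted p = 0.657). In 2D VHL was highest in LS513 (64.1 ± 4.62 CPM) and lowest in HT29 (31.9 ± 2.45 CPM, SD, n = 3 each), and HCT116 was above HT29 by 0.55 on the log2 scale (edgeR adjusted p = 0.00537).

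HIF1AN fell in HT29, from 96.4, 93.7 and 93.6 CPM in 2D to 70.9, 65.5 and 74.6 CPM in 3D. The log2 fold change was -0.43 (SE 0.10, edgeR adjusted p = 0.00147), and the call was kept with each library left out. The 3D libraries were also below all 2D libraries in LS513 and LS174T, where the log2 fold changes of -0.22 (SE 0.10) and -0.22 (SE 0.10) had edgeR adjusted p-values of 0.114 and 0.103. Without LS174T 3D replicate 2 the value of that line was -0.10 (edgeR adjusted p = 0.565). HCT116 had the highest HIF1AN level, 129 ± 12.7 CPM in 2D and 115 ± 7.20 CPM in 3D (SD, n = 3 each), with a log2 fold change of -0.16 (edgeR adjusted p = 0.221). The effects were not called different between lines (edgeR interaction adjusted p = 0.487). NDUFB8 and AL133352.1 share 325 and 31 exonic bases with HIF1AN on the opposite strand, and both were higher in 3D in HT29, by 0.68 (SE 0.16, edgeR adjusted p = 0.00164) and 0.69 (SE 0.15, adjusted p = 0.00107) on the log2 scale. The counting appeared to use strand, since genes lying within a highly counted gene had a median read density of 0.516 of their host's on the same strand (114 genes) and 0.0165 on the opposite strand (353 genes).

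Between lines, 41 of the 54 comparisons of a tested member in a pair of lines were called in 2D (64.7% over all genes) and 38 of 54 in 3D (65.4% over all genes). EPAS1 was called in all 6 pairs in 2D and in 5 in 3D, and ARNT2 in all 6 pairs in both. By the rule of more than 3 counts in all 3 libraries, ARNT2 was not detected in HT29 or LS513. Its call between those lines thus rests on counts near or under the floor. EGLN1 had the fewest, with 2 pairs in 2D and 3 in 3D.

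The genes known to be switched on by HIF were higher in 3D in most cases in each of the 4 lines. HIF1A fell in HT29, and whether its level bears on these genes was not tested. The lower HIF1A calls in HCT116 and LS174T were close to the threshold and lost when single libraries were left out. The list of HIF target genes was written with earlier results of these data known, so its counts are a description. Of 40 listed genes that are no member, 37 were tested, and those that rose numbered 24 (HT29), 30 (LS513), 32 (HCT116) and 33 (LS174T). The background of genes called higher was 21.1%, 13.7%, 16.8% and 13.1%. The median log2 fold change of the list was 0.74, 1.18, 1.18 and 1.34 in the 4 lines, where that of all tested genes lay between 0 and 0.02. NDRG1, a stress-responsive gene, had the smallest p in HT29, LS513 and HCT116, with log2 fold changes of 4.34 (SE 0.25), 3.29 (SE 0.23) and 4.36 (SE 0.24). In LS174T it was BNIP3, a gene of mitophagy, which went from 25.5 to 135 CPM (log2 fold change 2.40, SE 0.13, edgeR adjusted p = 2.47e-11). BNIP3 was at a mean of 0.0229 and 0.0106 CPM in HT29 and LS513 grown in 2D, under the floor. The listed gene that fell in HT29 was ENO1, a glycolytic enzyme, going from 3218 to 2362 CPM (log2 fold change -0.45, SE 0.11, edgeR adjusted p = 0.00257); it was chosen after its values were seen. In LS174T EPAS1 was near the floor, and whether its level bears on the target genes was not tested.

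**Figure D4:**
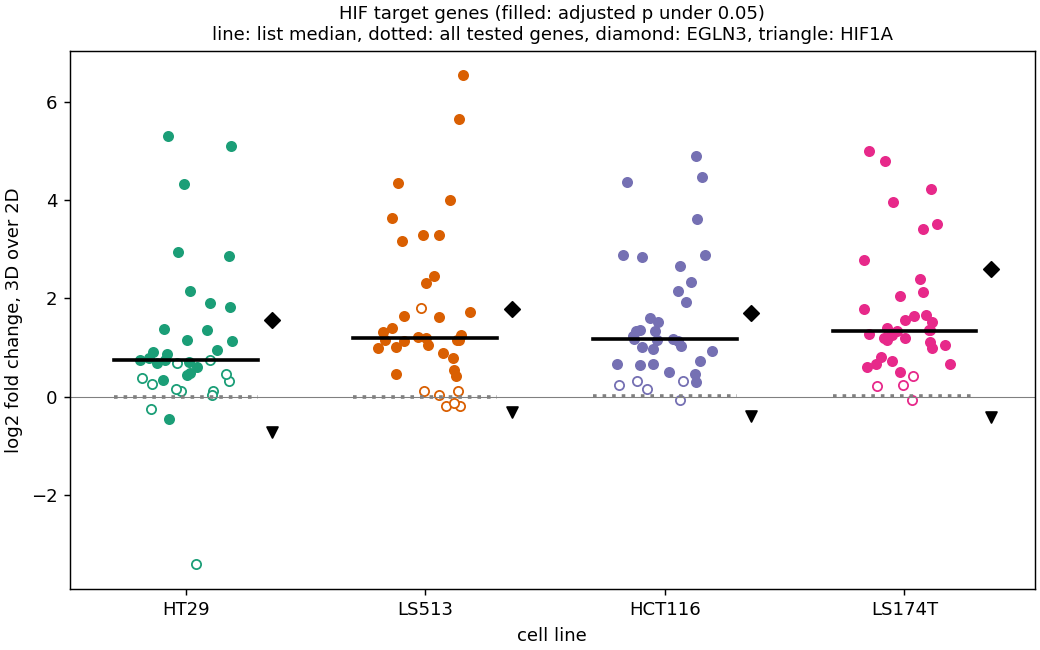
Log2 fold change of 3D over 2D for the 37 tested HIF target genes in each line, filled where the adjusted p was under 0.05; black lines are the median of the list, dotted lines the median of all tested genes, diamonds EGLN3 and triangles HIF1A. The list medians lie between 0.74 and 1.34, EGLN3 above each of them, and HIF1A below 0 in all 4 lines.

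Partners of the VHL ligase were called in both directions, and shares of genes called in either direction over all tested genes were 40.7%, 23.6%, 29.1% and 22.2% in HT29, LS513, HCT116 and LS174T, which also hold for the lists that follow. Of 10 partners of the VHL ligase, all tested, 3 rose and 2 fell in HT29, 1 rose and 2 fell in LS513, 2 rose and 2 fell in HCT116, and 2 rose and none fell in LS174T. The smallest p belonged to CUL2, the cullin scaffold of the ligase, in HT29 (log2 fold change -0.46, SE 0.10, edgeR adjusted p = 0.00104) and in HCT116 (-0.42, SE 0.10, adjusted p = 0.00384). In LS513 it was USP20, a deubiquitinase, which fell from 41.1 to 26.2 CPM (log2 fold change -0.65, SE 0.11, edgeR adjusted p = 1.24e-04). In LS174T WSB1, a ligase subunit that can target VHL, rose from 54.3 to 81.2 CPM (log2 fold change 0.58, SE 0.14, edgeR adjusted p = 0.00495).

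Cofactors and regulators of HIF stability, 26 genes all tested, moved in both directions. In HT29 6 rose and 10 fell, in LS513 5 rose and 4 fell, in HCT116 8 rose and 8 fell, and in LS174T 7 rose and 5 fell, beside 40.7%, 23.6%, 29.1% and 22.2% of all tested genes called in either direction. Their median log2 fold changes were -0.15, 0.01, -0.03 and -0.01. HSP90AB1, a chaperone that stabilises HIF alpha proteins, had the smallest p in HT29, where 2325 CPM became 1156 CPM (log2 fold change -1.01, SE 0.09, edgeR adjusted p = 3.18e-08), and in HCT116 (-0.65, SE 0.09, adjusted p = 1.78e-05). FHL2, a LIM-domain cofactor, rose in LS513 from 203 to 414 CPM (log2 fold change 1.03, SE 0.09, edgeR adjusted p = 2.89e-08) and in LS174T by 0.59 (SE 0.09, adjusted p = 1.03e-04).

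Of 17 other bHLH-PAS genes and p160 coactivators, the wider family of the HIF subunits, 14 were tested. In HT29 3 rose and 2 fell, in LS513 1 rose and 1 fell, in HCT116 3 rose and 1 fell, and in LS174T none rose and 1 fell, against the same shares over all tested genes (40.7%, 23.6%, 29.1% and 22.2%). CLOCK, a subunit of the circadian activator, had the smallest p in HT29 (54.7 to 23.2 CPM, log2 fold change -1.24, SE 0.25, edgeR adjusted p = 4.06e-04) and in LS174T (-0.90, SE 0.25, adjusted p = 0.0129). ARNTL2, a partner of CLOCK, fell in LS513 by -0.57 (SE 0.14, edgeR adjusted p = 0.00428). AHRR, the repressor of AHR, rose in HCT116 by 0.50 (SE 0.11, edgeR adjusted p = 0.00127). Of 8 targets often credited to EPAS1, 7 were tested, and 2 rose and 1 fell in HT29, 1 rose in LS513, 2 rose and 2 fell in HCT116 and 2 rose in LS174T. CCND1, a G1 cyclin, went from 128 to 57.9 CPM in HT29 (log2 fold change -1.15, SE 0.13, edgeR adjusted p = 5.55e-07), and TGFA, a growth factor, rose in HCT116 (0.49, SE 0.12, adjusted p = 0.00326). PLIN2, a lipid droplet protein, had the smallest p in LS513 (log2 fold change 0.65, SE 0.11, edgeR adjusted p = 1.19e-04) and in LS174T (1.11, SE 0.11, adjusted p = 2.1e-07). It also rose in HT29 (0.80, SE 0.12, edgeR adjusted p = 2.73e-05), and its value in HCT116 was 0.26 (SE 0.11, adjusted p = 0.0811).

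The genes most like HIF1A, EPAS1 and EGLN3 were found by Pearson's r of log2(CPM + 1) over the 24 libraries after each line's mean was taken away, which leaves the growth effect and the spread between libraries. For EGLN3 they were PFKFB4 (r = 0.969), ALDOC (r = 0.964) and the pseudogene SDAD1P1 (r = 0.956), and PFKFB4 and ALDOC are in the list of HIF target genes. For HIF1A they were TAF2 (r = 0.983), AP1G1 (r = 0.978) and ANKRD50 (r = 0.977). For EPAS1 they were ITGA2 (r = 0.828), DSG2 (r = 0.822) and TRIM5 (r = 0.812). Among the members themselves, by the same measure, EGLN3 and EGLN1 had r = 0.871 and HIF1A and HIF1AN r = 0.908, and HIF1A and EGLN3 had r = -0.705. These values share libraries and growth conditions and are given as a description.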

How the data were processed

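RNA was taken from 4 CRC lines grown in 2D and 3D. Messenger RNA selected by poly(A) was sequenced as stranded single reads. The authors trimmed reads with Trim Galore 0.4.1, aligned them with STAR, counted them per gene with HTSeq 0.5.3 and deposited raw counts for each technical replicate without normalization (versions from the submitters' processing notes, which list hg19, whereas the study's methods name Ensembl release 91). Each library had 8 technical replicates, except HT29 3D replicate 4 with 7, the other not analysed here. The replicates of a library differed within counting error (chi-square over degrees of freedom, median per library 0.906 to 0.933), and they were summed to 24 libraries. Groups and replicate numbers came from the labels.

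The summed counts were fitted with edgeR 4.0.16 in R 4.3.3: filterByExpr (19387 genes), TMM, a robust quasi-likelihood fit of 8 groups, and Benjamini-Hochberg adjustment over all tested genes. Tests were two-sided. Alternatives included DESeq2 1.42.0 and its size factors, no filter, a replicate block, single-line fits, subsets of technical replicates, other cutoffs and leaving out each library. Gene positions, exonic lengths and overlaps came from GENCODE 29 (GRCh38), and upstream sequences from RefSeq (GRCh38.p14). The members and lists were chosen with earlier results of these data known. Named genes were all 10 members, genes sharing exonic bases with them, the tested gene of each pathway list with the smallest p in each line, and the 3 genes most correlated with HIF1A, EPAS1 and EGLN3. CDX1, CDH17, LGALS4, VIL1, KRT18, PTPRC, LYZ, CD14 and ENO1 were named after their values were seen, as was PLIN2 in HT29 and HCT116. On simulated HT29 counts for 19387 genes, 73 of 100 genes changed by 1.5 and 22 of 100 changed by 0.5 on the log2 scale were called, with 5 false calls. The simulation changed 200 genes, whereas 40.7% of tested genes were called in the HT29 data. The adjustment was thus stricter there, and these shares do not give the sensitivity of the tests reported here.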

Additional observations from a re-analysis of the deposited data

Results flagged for a closer look

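The growth effect of EGLN1 differed between the 4 lines by the interaction test (edgeR adjusted p = 0.00581). The difference HT29 minus LS513 was -0.617 on the log2 scale, HT29 minus LS174T was -0.794 and HCT116 minus LS174T was -0.608. The effects themselves were 0.07 (HT29), 0.69 (LS513), 0.26 (HCT116) and 0.87 (LS174T), and 17.1% of all tested genes had an interaction called at the same threshold. HT29, LS513 and LS174T were grown in the same medium and HCT116 in another. In the difference that involves HCT116, the medium and the line cannot be told apart.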

How the results depend on the processing

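Of 36 tests of a member in a line, 13 were called, none changed its sign where called, 9 kept the call at an adjusted p of 0.05 under the other fits, normalization, filter and technical replicate choices, and 8 with each own library left out. EGLN3 in all 4 lines, EGLN1 in LS513 and LS174T, and HIF1A and HIF1AN in HT29 are those 8. Of these, EGLN3 in all 4 lines and HIF1A in HT29 also passed the study's cutoffs, and the other 3 did not. EGLN3 in HT29 passed narrowly at 1.553, and its log2 fold change was 1.2 to 1.88 with single HT29 libraries left out. With the study's cutoffs (log2 fold change under -0.5 or over 1.5), members called higher were 1 in each line and lower 1 in HT29, 0 in HCT116 and 0 in LS174T, HIF targets called higher were 8, 13, 13 and 15 and genes of the other lists 12, 5, 8 and 4, in the order HT29, LS513, HCT116, LS174T. With cutoffs of -1 and 1, members called higher were 1 in each line and lower 0 in HT29, HCT116 and LS174T, HIF targets were 12 in HT29 and the other lists 7, 2, 2 and 2. HIF targets of the other lines are not given at these cutoffs. The share of all tested genes passing them was not counted, so these numbers cannot be set against a background. Replicate numbers showed no clear pairing of libraries: 11 same-numbered pairs had correlations of -0.209 to 0.216, and 3 libraries matched their own number best. With 3 libraries per group this cannot exclude a pairing, and the labels do not say whether same-numbered libraries were prepared together. With the replicate block, 1 member was higher in HT29, and 0 were lower in HCT116 and LS174T. With only the 6 libraries of a line, 1 member was lower in LS513 and 0 in LS174T, where the other lists had 9 calls. Technical replicates a to d gave 1 member lower in HCT116 and 0 in LS174T, and e to h gave 2 in LS174T. Members with a growth effect that differed between lines were 3 with all genes of at least 1 count and 2 with DESeq2, against 1. The cause was not tested. By the longest transcript, the mean level over all libraries was 30.1 TPM for VHL, 15.9 for EGLN1, 55.5 for EGLN2, 31.7 for EGLN3 and 16.6 for HIF1AN, against 36.5, 21.3, 45.0, 16.8 and 21.3 by all exons. With 1 library left out, members called higher were 1 to 2 in HT29, 2 in LS513, 1 to 2 in HCT116 and 2 to 3 in LS174T, and lower 2, 0 to 1, 0 to 2 and 0 to 2. HIF targets were then 21 to 27, 29 to 30, 29 to 33 and 32 to 34, and the other lists 22 to 33, 11 to 24, 21 to 29 and 11 to 26. The interaction called 1 to 2 members, and 34 to 44 line comparisons were called in 2D and 35 to 40 in 3D. The share of all tested genes called was not counted for the settings from the replicate block on. Their counts therefore cannot be set against a background. HIF3A, and ARNT2 and EPAS1 where counts were under 20, are limited by depth.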
